A study of Homo sapiens with 6 samples.

Results

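The DLX genes are homeobox genes that lie in pairs at 3 places in the human genome, and the H2A.Z chromatin around these pairs was described in HEK293T, a human cell line of embryonic kidney origin. Overlapping or touching peaks of ubiquitylated and of total H2A.Z were merged, and a merged region was taken as a member when its midpoint fell in 1 of 3 hg19 windows, chromosome 2 from 172.85 to 173.05 Mb (DLX1, DLX2), chromosome 7 from 96.55 to 96.75 Mb (DLX5, DLX6) or chromosome 17 from 47.97 to 48.15 Mb (DLX3, DLX4). This gave 120 of 198179 merged regions, of which 22 lay in the DLX1/DLX2 window, 22 in the DLX5/DLX6 window and 76 in the DLX3/DLX4 window. Among merged regions the choice rests on position alone. A merged region exists only where a peak was called in at least 1 of the 2 pull-downs, which also gave the differential calls. All cells carried, from transfected plasmids mixed 3 to 1, H2A.Z-1 fused at its C-terminus to Flag-BirA and ubiquitin with an N-terminal AviTag, and were collected 48 hours after transfection. Streptavidin-agarose recovered nucleosomes with biotinylated ubiquitin (ubiquitylated H2A.Z, 2 samples), Flag M2-agarose recovered nucleosomes with the tagged histone (total H2A.Z, 2 samples), and an H3 antibody gave the third group (2 samples), which has no list of its own here. The data therefore describe a tagged and introduced histone, not the H2A.Z that the cells make themselves, and an effect of the reagent (streptavidin or Flag antibody) and an effect of ubiquitylation cannot be told apart.

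H2A.Z replaces the usual histone H2A in nucleosomes at promoters, enhancers and other regulatory sites, and a ubiquitin attached to its C-terminal end is known from repressed chromatin such as the inactive X chromosome. DLX proteins are transcription factors related to Drosophila Distal-less, and the genes of a pair are transcribed towards each other with shared enhancers between and around them. DLX1 and DLX2 direct the formation of inhibitory neurons in the ventral forebrain. DLX5 and DLX6 act in the jaw, limb, ear and bone, and the long noncoding RNA DLX6-AS1 is transcribed through the same locus. DLX3 acts in hair, tooth, bone and placenta, and its partner DLX4 is expressed in the placenta. In most differentiated tissues that do not use them, these genes are held silent by Polycomb proteins. Expression was not measured here.

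The stretches before the transcription starts are shown because H2A.Z chromatin is studied foremost at starts and because these letters differ between genes. Both genes of a pair are shown for DLX1 and DLX2 only. The set of RefSeq promoter stretches used here (GRCh38.p14) held 3 of the 6 DLX coding genes, DLX1, DLX2 and DLX6, and DLX6-AS1. It had no entry for DLX3, DLX4 or DLX5, which does not mean that RefSeq lacks their starts. Each line gives the 250 bases before the start, 5′ to 3′ on the gene's own strand, with CG dinucleotides in capitals. The stretches lie at chr2:172085257-172085506 (plus strand, DLX1), chr2:172102901-172103150 (minus strand, DLX2), chr7:97005303-97005552 (plus strand, DLX6) and chr7:97014066-97014315 (minus strand, DLX6-AS1) of GRCh38.p14. These positions cannot be set against the hg19 positions of the H2A.Z regions, so which region covers which start was not determined here.
DLX1: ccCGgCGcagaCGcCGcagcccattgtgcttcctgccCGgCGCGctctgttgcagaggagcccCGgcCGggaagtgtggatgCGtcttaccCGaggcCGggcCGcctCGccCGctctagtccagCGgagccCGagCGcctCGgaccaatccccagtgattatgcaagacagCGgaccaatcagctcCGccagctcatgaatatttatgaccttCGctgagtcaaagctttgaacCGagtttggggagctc
DLX2: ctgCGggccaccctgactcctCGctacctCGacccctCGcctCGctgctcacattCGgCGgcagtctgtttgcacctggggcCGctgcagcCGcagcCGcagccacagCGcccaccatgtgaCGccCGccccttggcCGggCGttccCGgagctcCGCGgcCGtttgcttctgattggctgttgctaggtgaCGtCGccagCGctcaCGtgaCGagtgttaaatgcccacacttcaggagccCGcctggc
DLX6: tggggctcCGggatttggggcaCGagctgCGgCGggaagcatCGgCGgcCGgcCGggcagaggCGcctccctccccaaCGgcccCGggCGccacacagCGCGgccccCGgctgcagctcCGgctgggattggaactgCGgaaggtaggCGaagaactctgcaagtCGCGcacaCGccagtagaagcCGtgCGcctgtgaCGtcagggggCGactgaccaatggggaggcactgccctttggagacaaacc
DLX6-AS1: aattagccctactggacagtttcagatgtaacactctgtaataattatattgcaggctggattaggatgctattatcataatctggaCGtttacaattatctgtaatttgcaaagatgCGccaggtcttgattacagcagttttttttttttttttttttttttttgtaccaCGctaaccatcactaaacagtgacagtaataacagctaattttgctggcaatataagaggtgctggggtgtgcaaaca

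The 3 coding genes had CG-rich starts, with 23 CG dinucleotides in DLX1, 25 in DLX2 and 25 in DLX6, where the median of 35116 RefSeq promoter stretches of the same length was 11 and the upper quartile 23. The DLX6-AS1 stretch held 3, equal to the lower quartile, and its GC content was 35.2% against 63.6% for DLX1, 68% for DLX2 and 70% for DLX6. The letters TAATT, the core that homeodomains such as those of DLX proteins bind, were searched on both strands. They were found 6 times in the DLX6-AS1 stretch, where matches on opposite strands may overlap, and not in the DLX1, DLX2 or DLX6 stretches. Of all the stretches 23.1% held them on either strand. The letters TGACGT, which hold a CG, occurred on 1 strand in DLX2 and on 2 strands in DLX6, where the 2 matches overlap at a single place. Of all stretches 7.1% held TGACGT on either strand. These matches describe the letters only.

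The files hold 1 list per pull-down, with a position and an irreproducible discovery rate (IDR, small where a peak repeats between replicates) for each peak, and lists of regions that differed between the pull-downs at a false discovery rate (FDR) of at most 0.05. They hold no counts and no value per sample, so depth is unknown, no replicate spread can be given for a region, and each value below is the authors' own value for a group or comparison. Nothing in the labels says that replicates were separate cultures, so both rates may reflect technical spread only. Fold changes are ubiquitylated over total H2A.Z, are read as log2 (the files do not name the base), and depend on how the authors scaled the libraries, which no source used here describes. Regions of 1 window share their libraries and are not replicates, so counts over regions carry no test. Genome-wide, 21.5% of merged regions were differential, 9.39% higher in ubiquitylated and 12.1% higher in total H2A.Z.

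The 3 windows held unequal numbers of H2A.Z regions and unequal mixtures of peaks from the 2 lists. Total H2A.Z includes the ubiquitylated histone. A ubiquitylated peak alone therefore means that no total H2A.Z peak was called there, not that total H2A.Z was absent. Regions around a pair of genes are all regions of its window. The DLX3/DLX4 window held 42.2 regions per 100 kb and H2A.Z peaks covered 20.9% of it, while the DLX1/DLX2 and DLX5/DLX6 windows each held 11 regions per 100 kb and were covered to 7.31% and 5.63%. Among 13362 tiles of 200 kb with at least 1 region, the median was 7 regions, the upper quartile 17 and the 90th percentile 39, so all 3 windows were above the upper quartile, although the 180 kb DLX3/DLX4 window is shorter than a tile. Around DLX3 and DLX4 most regions held peaks of both lists, 47 of 76 (61.8%, against 41.9% of all regions). Another 13 had ubiquitylated and 16 total H2A.Z peaks alone. Around DLX1 and DLX2 most regions had a total H2A.Z peak alone, 13 of 22 (59.1%, against 29.2% of all regions), with 4 of ubiquitylated H2A.Z alone and 5 of both. Around DLX5 and DLX6 the kinds were near even, with 8 of ubiquitylated H2A.Z alone, 7 of total H2A.Z alone and 7 of both.

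Peak by peak, 7 of the 11 ubiquitylated peaks around DLX1 and DLX2 overlapped a total H2A.Z peak, while 5 of the 18 total H2A.Z peaks (27.8%) overlapped a ubiquitylated one. The corresponding counts were 9 of 17 and 7 of 14 around DLX5 and DLX6, and 49 of 62 and 49 of 65 around DLX3 and DLX4. Over the whole lists the shares were 60.1% for the ubiquitylated and 59.8% for the total H2A.Z peaks. In covered sequence, ubiquitylated peaks spanned 7.12 kb and total H2A.Z peaks 10.7 kb of the DLX1/DLX2 window, with 3.21 kb in both, which is 22.0% of all covered bases. In the DLX5/DLX6 window they spanned 7.79 and 7.03 kb with 3.56 kb in both (31.6%), and in the DLX3/DLX4 window 28.6 and 29.4 kb with 20.4 kb in both (54.2%). Genome-wide 41.8% of covered bases lay in both lists. The map of peaks by distance from the window's middle shows the sparse outer parts of the first 2 windows and the denser DLX3/DLX4 window with its 2 groups of 61 and 15 regions.

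**Figure D1:**
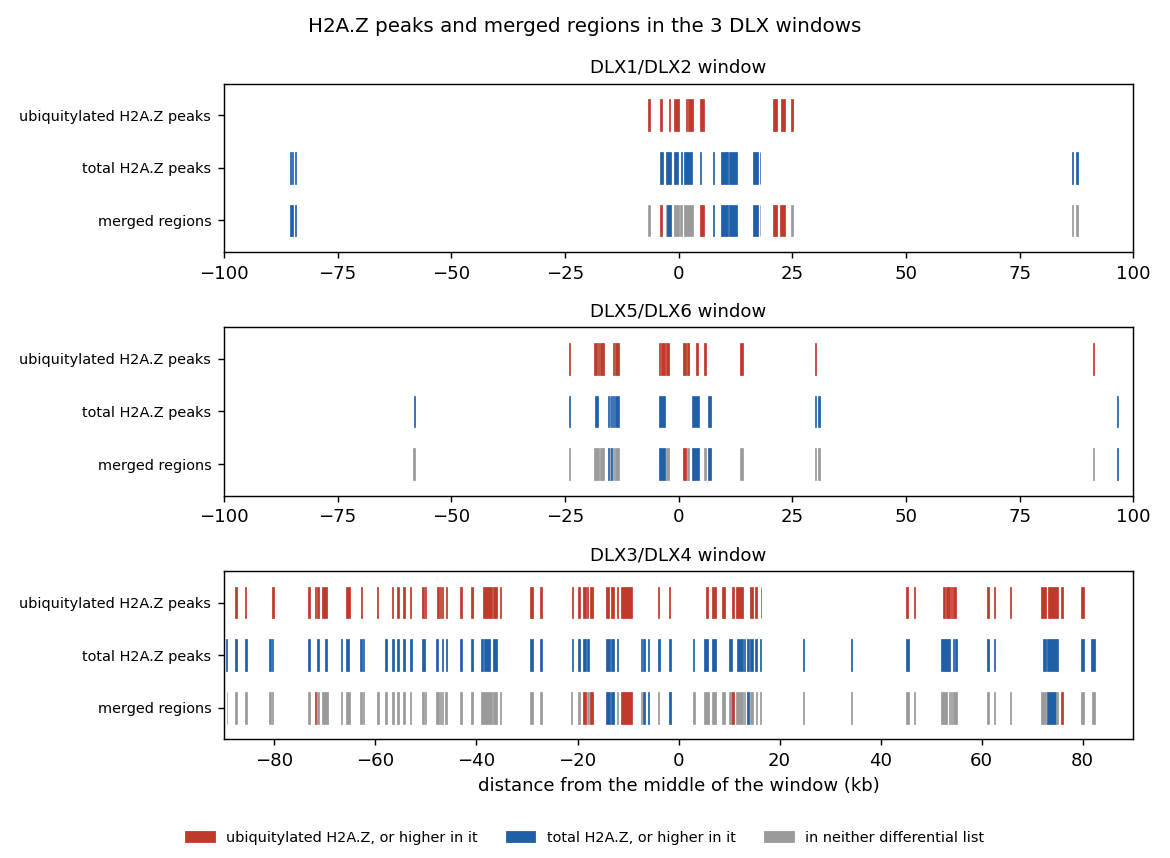
Peaks of ubiquitylated H2A.Z (upper row), peaks of total H2A.Z (middle row) and merged regions (lower row) in each DLX window, against distance from the window's middle in kb. Merged regions are red where higher in ubiquitylated H2A.Z, blue where higher in total H2A.Z and grey where in neither differential list; bars are drawn with a minimum line width, so the narrowest look wider than they are. In the DLX1/DLX2 window 17 of 22 regions fall in one 31.8 kb group near the middle, while the 76 regions of the DLX3/DLX4 window fall in 2 groups of 124 and 37.4 kb.

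The comparison of the 2 pull-downs found 33 of the 120 regions (27.5%) differential, 22 higher in total H2A.Z (18.3%, against 12.1% of all regions) and 11 higher in ubiquitylated H2A.Z (9.17%, against 9.39%). At an FDR of at most 0.01 these were 14 (7.21% of all regions) and 9 (5.26%). In the DLX1/DLX2 window 13 of 22 regions were differential (59.1%), 9 towards total and 4 towards ubiquitylated H2A.Z. Of the 9, 3 lay in a separate group at chr2:172864507-172865917. The group of 17 regions near the middle held 6 towards total and 4 towards ubiquitylated H2A.Z. The rest of chromosome 2 had 11.2% of its regions in the first direction and 7.26% in the second. In the DLX5/DLX6 window 6 of 22 regions went towards total H2A.Z and 1 towards the ubiquitylated form, where the rest of chromosome 7 had 11.5% and 10.3%. In the DLX3/DLX4 window 7 of 76 regions (9.21%) went towards total H2A.Z and 6 (7.89%) towards the ubiquitylated form, where the rest of chromosome 17 had 12.9% and 8.95%. Without the DLX1/DLX2 window, the other 98 regions held 13 towards total H2A.Z (13.3%) and 7 towards ubiquitylated H2A.Z (7.14%).

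**Figure D2:**
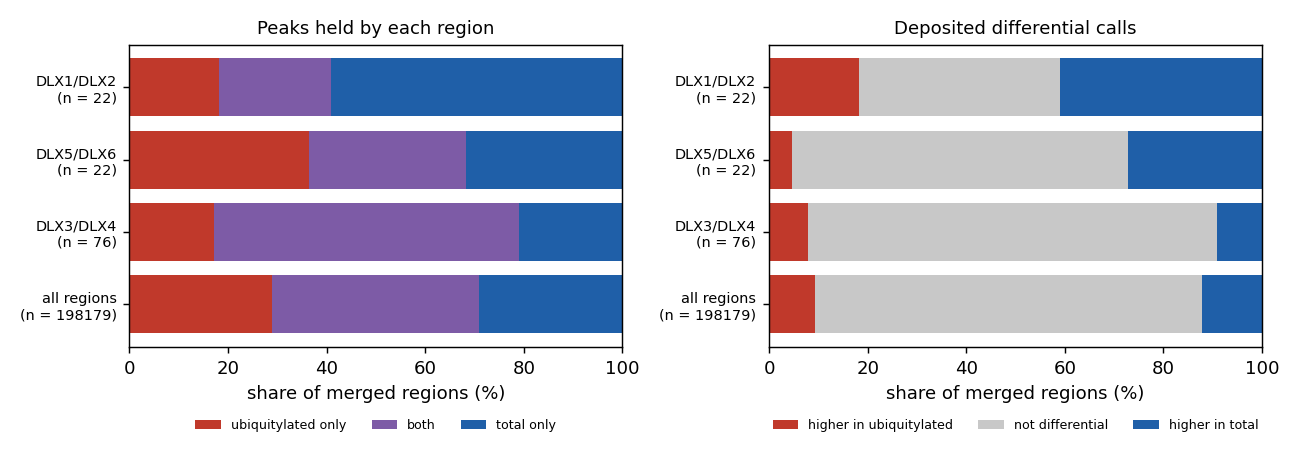
Share of merged regions, in percent, that held peaks of 1 or both lists (left) and that were in the authors' differential lists (right), for each DLX window and for all 198179 regions. The DLX1/DLX2 window has the widest blue parts, 59.1% of regions with total H2A.Z peaks alone and 40.9% higher in total H2A.Z, and the DLX3/DLX4 window has the widest part with peaks of both lists, 61.8%.

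Most differential members held a peak of the list in which they were higher and none of the other, which follows in part from the same libraries having made both kinds of list. Of the 36 regions with total H2A.Z peaks alone, 15 were differential towards total H2A.Z (30.5% of such regions genome-wide) and 0 towards ubiquitylated H2A.Z (0.0831%). Of the 25 with ubiquitylated peaks alone, 8 went the ubiquitylated way (23.8%) and 0 the other (0.127%). Among the 59 with peaks of both, 7 went towards total H2A.Z (7.52%) and 3 towards the ubiquitylated form (5.97%). The DLX1/DLX2 window accounted for 8 of the 15 regions with total H2A.Z peaks alone, out of 13 there.

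In RefSeq's order of coding genes, DLX1 and DLX2 lie between METAP1D, a mitochondrial methionine aminopeptidase, and ITGA6, an integrin subunit. The divergent transcript DLX2-DT lies beside DLX2. Gene positions were not set against the hg19 windows, so a window may also hold parts of neighbouring genes. Of the 22 regions of the DLX1/DLX2 window 17 lay in chr2:172943329-172975093, and the nearest regions beyond them were 77.4 kb away on one side. Along this group the differential calls fell in 5 successive runs of alternating direction, of 1, 1, 1, 5 and 2 regions, with regions in neither differential list among them. The first 8 regions included all 5 that held peaks of both lists. Among them chr2:172945959-172946500 had a log2 fold change of 0.53 (FDR 0.017) in the authors' deposited table and chr2:172947542-172948288 one of -0.72 (FDR 0.00012). The widest of all the DLX regions followed at chr2:172951186-172953286. It was 2101 bp wide, with 1 total H2A.Z peak of 1702 bp and 3 ubiquitylated peaks of 329, 166 and 951 bp, and was in neither differential list, as was the nearby chr2:172948934-172950014 (1081 bp), where 1031 bp were covered by both lists.

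At chr2:172954682-172955602 a ubiquitylated peak covered all 921 bp and a total H2A.Z peak 309 bp, and the authors' deposited table gave the region a log2 fold change of 0.55 with FDR 0.005. The run of 5 successive regions came next, over 9.92 kb, all with total H2A.Z peaks alone and all higher in total H2A.Z. Its lowest FDR was at chr2:172961062-172962825, 1764 bp wide, with a log2 fold change of -0.78 (FDR 7.7e-07) in the authors' deposited table and the lowest IDR of the window's total H2A.Z peaks (0.00038). The largest change was at the 152 bp region chr2:172960763-172960914, with -1.32 and FDR 0.00089 in the authors' deposited table. Between them and around them, chr2:172957610-172957813, chr2:172959354-172960579 and chr2:172966433-172967525 had log2 fold changes of -0.85, -0.57 and -0.43 in the authors' deposited table (FDR 0.031, 0.0011 and 0.02). This run held both narrow and wide regions, and the smaller changes were at wide ones.

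The order then turned. The next 3 regions after a narrow undifferentiated one, chr2:172967810-172967975, held ubiquitylated peaks alone. In the authors' deposited table chr2:172970678-172971734 (1057 bp) had a log2 fold change of 0.67 with FDR 0.00038, and chr2:172972440-172973454 (1015 bp) one of 0.79 with FDR 4e-05. The last, chr2:172974679-172975093, was in neither differential list. At the start of the window, before the group near the middle, 3 narrow regions of 201 to 269 bp lay within chr2:172864507-172865917. They held total H2A.Z peaks alone, and the authors' deposited table gave them log2 fold changes of -0.78, -0.89 and -1.29 (FDR 0.019, 0.00094 and 0.0016). The window's remaining regions, at chr2:173036499-173036719 and chr2:173037447-173037790, also held total H2A.Z peaks alone and were in neither differential list. The ubiquitylated peak with the lowest IDR of the window (0.00053) was the one at chr2:172954682-172955602.

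**Figure D3:**
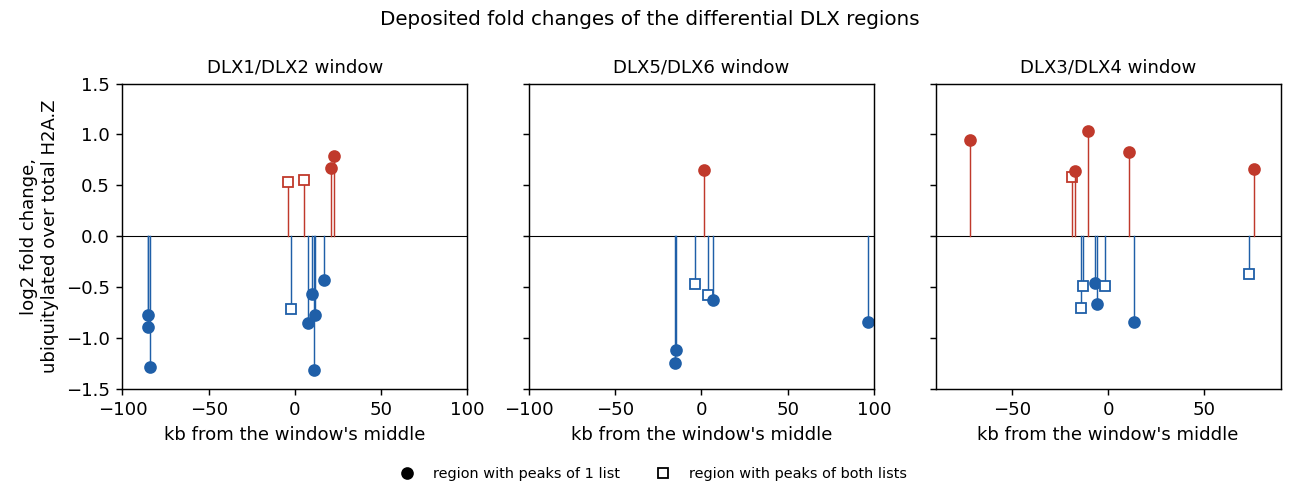
Deposited log2 fold change, ubiquitylated over total H2A.Z, of the 33 differential DLX regions against distance from the window's middle in kb; filled circles are regions with peaks of 1 list and open squares regions with peaks of both. Values run from -1.32 to 1.03, and in each window regions of opposite sign lie within a few kb of each other near the middle.

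In the same gene order, DLX5 and DLX6 lie between SEM1, a proteasome subunit, and SDHAF3, an assembly factor of succinate dehydrogenase. Of the 22 regions of the DLX5/DLX6 window 17 lay in chr7:96625966-96664175 (38.2 kb). Calls towards total H2A.Z prevailed, 6 against 1. Regions higher in total H2A.Z were of 2 kinds. Those with total H2A.Z peaks alone included the narrow chr7:96634467-96634741 and chr7:96635250-96635427, with log2 fold changes of -1.25 (FDR 0.00017) and -1.12 (FDR 0.0023) in the authors' deposited table. The other kind was wide and held peaks of both lists. At chr7:96653001-96654417, the widest region of the window (1417 bp), a total H2A.Z peak covered the whole and a ubiquitylated peak 359 bp, and the authors' deposited table gave -0.58 with FDR 8.8e-05. At chr7:96645617-96646928 (1312 bp) ubiquitylated peaks covered 1086 bp, and the authors' deposited table gave -0.47 with FDR 0.0014.

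Between these wide regions lay the only DLX5/DLX6 region higher in ubiquitylated H2A.Z, chr7:96650961-96651611, with a ubiquitylated peak alone and a log2 fold change of 0.65 (FDR 0.0041) in the authors' deposited table. The other 7 regions with ubiquitylated peaks alone were in neither differential list, among them chr7:96655632-96656007 with an IDR of 6e-05. The total-only regions chr7:96656492-96657060 and chr7:96746410-96746560 completed the differential regions, with -0.63 (FDR 0.0049) and -0.84 (FDR 0.027) in the authors' deposited table. The most repeatable peaks of either list in the window met in a region with no call. At chr7:96635917-96636876 the ubiquitylated peak had an IDR of 2.1e-05 and the total H2A.Z peak one of 0.00017, each the lowest of its list in the window, and 936 of 960 bp were covered by both. The wide region chr7:96631373-96632521 (1149 bp, 2 ubiquitylated peaks and 1 total H2A.Z peak) was likewise in neither differential list.

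In gene order, DLX3 and DLX4 lie between TAC4, a tachykinin gene, and ITGA3, an integrin subunit gene. The DLX3/DLX4 window held the DLX region with the lowest FDR, which also had the largest change towards ubiquitylated H2A.Z. It was chr17:48048696-48050710, a 2015 bp region with 1 ubiquitylated peak and no total H2A.Z peak, with a log2 fold change of 1.03 and an FDR of 1.7e-11 in the authors' deposited table. No other DLX region passed 2-fold towards ubiquitylated H2A.Z (1.47% of all regions did), and 4 passed it towards total H2A.Z (2.39% of all regions), 2 around DLX1 and DLX2 and 2 around DLX5 and DLX6. Regions higher in total H2A.Z stood on either side of it. Before it, chr17:48045697-48046426 and chr17:48046583-48047208, with peaks of both lists, had log2 fold changes of -0.71 (FDR 9.3e-05) and -0.49 (FDR 0.017) in the authors' deposited table. After it, chr17:48052900-48053366, chr17:48053926-48054171 and chr17:48058024-48058541 had -0.46, -0.67 and -0.49 in the authors' deposited table (FDR 0.034, 0.044 and 0.02).

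The other regions of this window that were higher in ubiquitylated H2A.Z were smaller. The pair chr17:48041093-48041771 and chr17:48042449-48043105 had log2 fold changes of 0.58 (FDR 0.0025) and 0.64 (FDR 0.0011) in the authors' deposited table. The remaining 3, chr17:47987943-47988197, chr17:48070562-48071022 and chr17:48135769-48136167, all with ubiquitylated peaks alone, had 0.95, 0.83 and 0.66 in the authors' deposited table (FDR 0.0084, 0.00064 and 0.019). Towards total H2A.Z, chr17:48073558-48074014 had -0.84 (FDR 0.0014) in the authors' deposited table. The 1821 bp region chr17:48132915-48134735 had -0.37 (FDR 0.0086) there, the smallest change among the differential DLX regions, and held the total H2A.Z peak with the lowest IDR of all 3 windows (4.8e-05).

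Between the regions chr17:48070562-48071022 and chr17:48073558-48074014, which were called in opposite directions, lay chr17:48071471-48072803. Its 1333 bp held the ubiquitylated peak with the lowest IDR of all 3 windows (6.2e-07) and a total H2A.Z peak with an IDR of 0.00026. The peaks covered 1304 and 1200 bp and shared 1171 bp, and the region was in neither differential list. The 2101 bp region around DLX1 and DLX2 likewise held peaks of both lists and was in neither differential list. It too lay between differential regions of opposite direction. Over the window 63 of 76 regions (82.9%) were in neither differential list, against 78.5% genome-wide.

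Regions of at least 1000 bp numbered 16 of 120 (13.3%), against 4.92% of all regions, and 7 of them were in the DLX1/DLX2 window, 3 in the DLX5/DLX6 window and 6 in the DLX3/DLX4 window. Of these 16, 6 went towards total and 3 towards ubiquitylated H2A.Z, whereas among all regions of that width 12.2% and 28.3% did. By window, these counts were 3 and 2 around DLX1 and DLX2, 2 and 0 around DLX5 and DLX6, and 1 and 1 around DLX3 and DLX4. Pooled over the windows, wide DLX regions were thus more often higher in total H2A.Z. Wide regions at large were more often higher in the ubiquitylated form. The 16 regions are few, the windows differed and the difference was not tested. The median width was 394 bp around DLX1 and DLX2, 352 bp around DLX5 and DLX6 and 406 bp around DLX3 and DLX4, against 313 bp overall. Around DLX1 and DLX2 the regions higher in ubiquitylated H2A.Z had widths from 542 to 1057 bp, and those higher in total H2A.Z from 152 to 1764 bp, so the ranges overlapped.

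**Figure D4:**
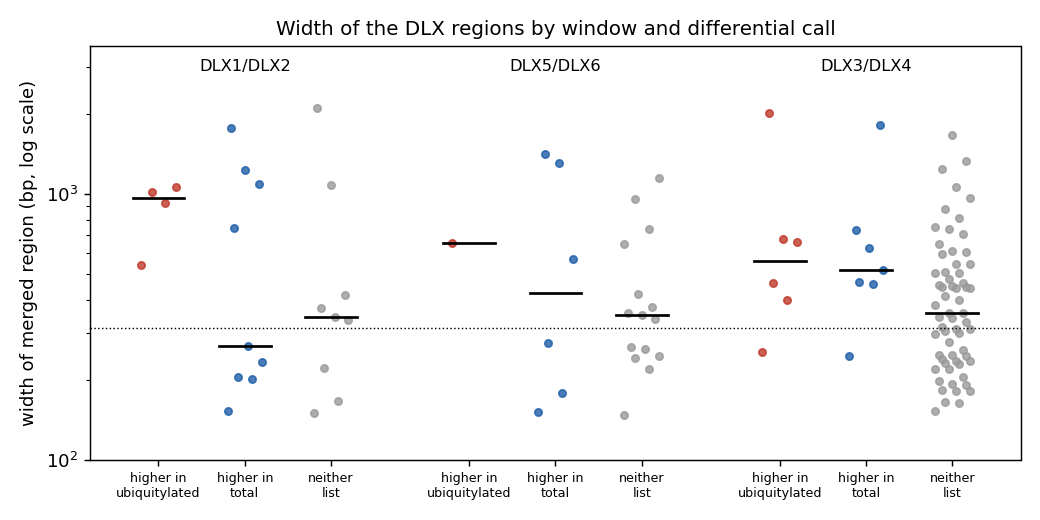
Width of each DLX region in bp on a log axis, by window and by differential call; points are regions, black bars medians, and the dotted line the median of all 198179 regions (313 bp). Regions higher in total H2A.Z around DLX1 and DLX2 spread from 152 to 1764 bp, with a median of 269 bp, while the 4 higher in ubiquitylated H2A.Z have a median of 968 bp.

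The median IDR of ubiquitylated peaks was 0.00555 around DLX1 and DLX2, 0.00395 around DLX5 and DLX6 and 0.00105 around DLX3 and DLX4, against 0.00137 for the whole list. For total H2A.Z peaks the medians were 0.00186, 0.00449 and 0.00245, against 0.00335. Ubiquitylated peaks in regions without a total H2A.Z peak repeated least around the first 2 pairs, with medians of 0.0169 (4 peaks) and 0.0126 (8 peaks). The 13 such peaks around DLX3 and DLX4 had a median of 0.00127, and such peaks of the whole list one of 0.00226. The IDR of the 2 lists comes from separate pairs of libraries and was not compared between lists.

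Of 30 pairs of successive differential regions within a window, 17 (56.7%) had the same direction, 7 of 12 around DLX1 and DLX2, 4 of 6 around DLX5 and DLX6 and 6 of 12 around DLX3 and DLX4. Over the genome 72.5% of 42550 such pairs did. The regions nearest to the windows' edges on the outside lay 69.1 and 45.6 kb from the DLX1/DLX2 window and 68.3 and 163 kb from the DLX5/DLX6 window, but 1.59 and 4.19 kb from the DLX3/DLX4 window. The edges of the first 2 windows therefore cut through empty sequence, and those of the third through a continuing series of regions.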

How the data were processed

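ChIP-seq was done on micrococcal nuclease digested nuclei of HEK293T cells, in 3 groups of 2 samples by their titles. Bowtie, SAMtools, MACS2, edgeR and hg19 are named in the submitters' processing notes, without versions or settings. For each H2A.Z pull-down the authors deposited 1 peak list, whose value per peak was read as the IDR, a q-value-like measure of at most 0.05, and 2 lists of differential regions with an FDR of at most 0.05 and a fold change, read as log2 since edgeR writes that scale. H3 values were not analysed here.

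Starts were raised by 1 base to give 1-based positions. Peaks of both lists were merged where they overlapped or touched, members were chosen by window, and every differential region matched 1 merged region exactly. Shared peaks overlapped by at least 1 bp. Regions were put in 1 group where gaps were at most 10 kb. Regions named are all differential members and, per window, those with the lowest IDR of each list and the widest; others named for their place beside these were chosen after their values were seen. The members, windows and lists were chosen with earlier results of these data known. The only tests are the authors' FDR values. Promoters and gene order come from RefSeq (GRCh38.p14), which was not set against hg19 positions. Interval functions were tested on simulated data. Python 3.11.15, numpy 2.4.6, scipy 1.17.1 and matplotlib 3.10.9 were used.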

Additional observations from a re-analysis of the deposited data

How the results depend on the processing

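No paired analysis was possible because no file gives a separate value for each library; leaving out a replicate and a fit with the replicate number as a block were not run for the same reason. Of 22 alternatives for the 120 DLX regions, 17 left the count within 1.5 times or the share within its 95% Wilson interval. That interval treats regions or peaks as independent, although they share their libraries. It served only as a yardstick and does not measure the spread between replicates. When 50% of both peaks had to overlap, 56.7% of ubiquitylated (72.2% with 1 bp) and 52.6% of total H2A.Z peaks (62.9% with 1 bp) were shared. At an FDR of at most 0.01, 14 regions in place of 22 were higher in total H2A.Z, while 9 in place of 11 were higher in ubiquitylated H2A.Z. Genome-wide, 7.21% and 5.26% of merged regions were at that limit. With changes of at least 2-fold alone, 4 and 1 remained. These alternatives hold fewer regions or a stricter overlap by construction. Depth is unknown, so a region in neither differential list may differ by less than these libraries could show.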
